A study of Mus musculus with 20 samples.

Results

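The genotype effect on each gene, the double-knockout level minus the control level in mouse jejunal epithelium, was compared between 5 months and 7 days after gene ablation. All 20 of the 20 libraries of the series entered the comparison, and genes were taken by joining the acute and prolonged tables on gene symbol after date-like names were dropped. The join held 15882 genes of 17294 names in the acute table and 16195 in the prolonged table. Of these, 13186 reached a CPM (reads in a gene scaled to the library's reads in all genes) of 0.5 in at least 3 libraries of each table and were tested.

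The acute groups were 5 libraries of Control/WT mice and 7 of Kdm6a/Kdm6b knockout mice (DKO, double knockout), taken 7 days after ablation. The prolonged groups were 3 Control/WT and 5 DKO libraries, taken 5 months after ablation. All mice were female, all libraries were poly(A) RNA of intestinal epithelial cells of the jejunum, and the series design names crypt cells. The driver and inducer of the ablation, the strain and the age of the mice are not given in the sources used here. The labels call the libraries biological replicates.

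Kdm6a and Kdm6b encode demethylases that remove methyl groups from lysine 27 of histone H3. The trimethylated form of this lysine is placed by Polycomb repressive complex 2 and marks silent genes. The jejunal epithelium is renewed from crypt base stem cells within days, while the Paneth cells beside them live for weeks.

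Libraries held between 9914738 and 26586045 reads in genes. Summed CPM of 8 epithelial markers (Epcam, Cdh1, Vil1, Krt8, Krt18, Krt19, Krt20 and Cdx2) lay between 10730 and 12800 over all libraries, while 4 immune markers summed to between 44.9 and 143 CPM. The 3 stromal markers summed to between 22.9 and 74.5 CPM in acute controls, between 20.3 and 217 CPM in acute DKO libraries and between 12.1 and 18.9 CPM in prolonged libraries of either genotype. The 3 muscle markers summed to at most 3.09 CPM in any library. Acute DKO 3 and acute DKO 4 stood apart on the first principal component of all tested genes, at 37.7 and 45.4 against values between -24.4 and 16.6 in the other 18 libraries. By their labels these 2 mice had adjacent numbers, above those of all other acute mice, controls included. What the mouse numbers stand for is not given, and a tie to the position of these libraries was not tested. The main counts, and several results that rest on these 2 libraries, are given with and without them.

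Most of the genotype effect pointed the same way at both times, and no gene passed the test of a difference between the effects. An effect is given as log2(CPM + 1) in DKO minus controls, and calls were made where limma-trend, fitted to all 20 libraries in 1 model, gave a Benjamini-Hochberg adjusted p under 0.05. At the acute time 2968 of 13186 genes were called (22.5%), 605 higher and 2363 lower. At the prolonged time 935 were called (7.09%), 342 higher and 593 lower, a count that was 582 without prolonged control 1 and 411 without prolonged control 3. Both times shared 744 calls (5.64% of the genes tested), 201 higher and 543 lower, and no gene was called in opposite directions. The shared count was 443 without prolonged control 1 and 359 without prolonged control 3. Without acute DKO 3 and 4 there were 2396 acute, 1379 prolonged and 1008 shared calls, and 1 gene was called in opposite directions. The 744 shared calls were 25.07% of the acute calls and 79.57% of the prolonged calls.

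The difference between the effects (prolonged minus acute) was called for 0 genes (0.0%) by limma. At an unadjusted p under 0.05 there were 615 genes (4.66%), with 508 differences above 0 (3.85%) and 107 below (0.811%). On recovered reads, edgeR's quasi-likelihood test also called 0 genes, with 495 at an unadjusted p under 0.05, while DESeq2 called 8, with 493. Limma called 6 genes when each table was fitted alone, namely Dcaf12l1, Ghrl, Mageh1, Nrep, Serpine2 and Slco5a1. The median standard error was 0.099 for the acute effect, 0.124 for the prolonged effect and 0.158 for the difference.

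The effects of the same genes at both times are shown in the scatter of prolonged against acute effects. Over the 13186 genes their Pearson correlation was 0.786 and Spearman's was 0.679, given as a description because genes are not independent replicates. The acute and prolonged groups share no library. Of the 2224 genes called at the acute time alone, 2098 (94.33%) had a prolonged effect of the same sign, with a median acute effect of -0.28 and a median prolonged effect of -0.14. Of the 191 genes called at the prolonged time alone, 176 (92.15%) had the same sign at the acute time, with medians of 0.09 and 0.41. Both sets were picked for passing at 1 time alone, so a smaller median at the other time follows in part from that choice. Over all genes the SD of the effect was 0.296 at the acute time and 0.301 at the prolonged time. Over all genes 70.38% kept their sign. Acute calls leaned to lower expression, and this lean moved with scaling: 20.4% of them were higher with the deposited CPM, 42.6% with TMM-scaled CPM and 46.8% by edgeR. The median effect of all genes was -0.07 at the acute time and 0.00 at the prolonged time, and the median difference of 0.08 was 0.00 with TMM scaling.

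**Figure D1:**
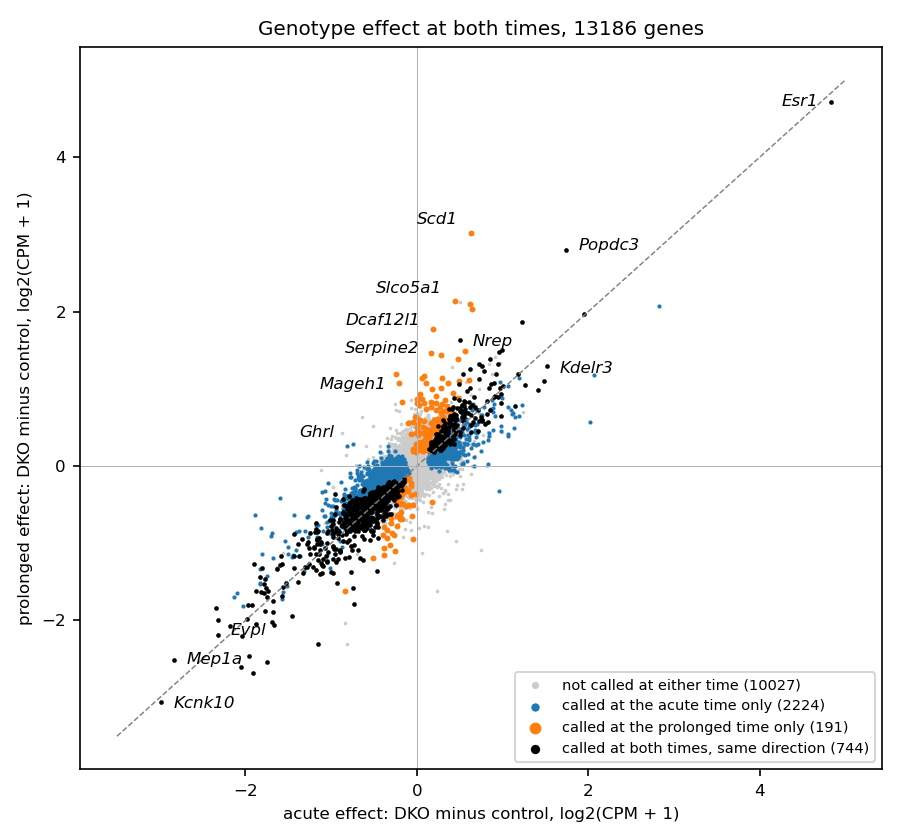
Each point is 1 of the 13186 genes, with the acute effect on the horizontal axis and the prolonged effect on the vertical axis, both in log2(CPM + 1) units, DKO minus control; the dashed line marks equal effects. The 744 genes called at both times lie along that line, below 0 on both axes or above 0 on both, from Kcnk10 at -2.98 and -3.05 to Esr1 at 4.83 and 4.72.

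The targeted genes were reduced to a similar extent at both times. Kdm6a was at 71.7, 57.7, 72.6, 67.8 and 60.8 CPM in acute controls and between 38.5 and 45.7 CPM (median 41.6) in acute DKO libraries, and at 82.6, 70.8 and 75.1 CPM in prolonged controls against 44.4, 48.1, 49.0, 48.9 and 55.3 CPM in prolonged DKO libraries. Genotypes did not overlap at either time. Kdm6a fell by 0.62 ± 0.07 (SE) at the acute time and by 0.62 ± 0.08 at the prolonged time (adjusted p by limma = 2.6e-06 and 8.05e-05), and the difference of -0.00 had a 95% interval from -0.23 to 0.22. Kdm6b fell by 0.53 ± 0.07 and by 0.42 ± 0.09 (adjusted p by limma = 4.66e-05 and 0.00729), with a difference of 0.11 and an interval from -0.14 to 0.35. Reads were counted over whole genes, so transcripts that lack only the deleted exons still count. Esr1, the oestrogen receptor gene, was below 0.5 CPM in all 8 control libraries and between 28.2 and 41.2 CPM in all 12 DKO libraries, with effects of 4.83 and 4.72. It reached the level for testing through the DKO libraries alone. The sources used here do not say whether a recombinase fused to part of this receptor was used, and reads from such a transgene could not be told apart from Esr1.

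Among genes called at both times with no overlap between genotypes, the 6 rises and 6 falls whose smaller effect of the 2 times was largest are described here, Esr1 being 1 of the rises. Kcnk10, a potassium channel gene, was at 22.4, 20.8, 22.5, 21.5 and 21.0 CPM in acute controls and between 1.40 and 2.45 CPM (median 1.78) in acute DKO libraries. It was at 19.6, 18.2 and 16.6 CPM in prolonged controls and at 1.35, 1.36, 1.10, 1.41 and 1.32 CPM in prolonged DKO libraries. Every DKO library was below every control library, and the effects were -2.98 ± 0.09 and -3.05 ± 0.12, with a difference of -0.07 (95% interval from -0.38 to 0.24). Mep1a, which encodes a subunit of the brush border protease meprin, had effects of -2.84 and -2.51. Evpl, for the junction and envelope protein envoplakin, had effects of -2.33 and -2.19, and Paqr5, a membrane receptor gene, -2.18 and -2.07. Aqp3, a water and glycerol channel of the basolateral membrane, had effects of -2.32 and -1.996, and Ang4, an antimicrobial ribonuclease of Paneth cells with close paralogs, -2.04 and -2.21. The highest adjusted p by limma among these falls was 0.00376, for Aqp3 at the prolonged time.

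Of the genes that rose at both times, Cyp27a1, the sterol 27-hydroxylase, had effects of 1.18 and 1.20, Kdelr3, a receptor that returns proteins to the endoplasmic reticulum, 1.52 and 1.29, and Oas2, an antiviral oligoadenylate synthetase, 1.48 and 1.09. The prolonged call of Oas2 was lost without prolonged control 1 (effect 0.95, adjusted p by limma = 0.0553). Popdc3, which encodes a cyclic AMP-binding membrane protein, was at 0.215, 0.226, 0.324, 0.594 and 0.372 CPM in acute controls and between 1.73 and 6.25 CPM (median 3.87) in acute DKO libraries. Prolonged controls held 0.302, 0.229 and 0.303 CPM and prolonged DKO libraries 8.76, 6.99, 8.80, 6.84 and 8.18 CPM. The prolonged DKO libraries were above all acute DKO libraries as well as all controls. Popdc3 reached the level for testing at both times only with its DKO libraries. Its effect was 1.74 ± 0.17 at the acute time and 2.80 ± 0.21 at the prolonged time (adjusted p by limma = 9.02e-07 and 5.36e-08), and the difference of 1.06 ± 0.27 did not pass (adjusted p by limma = 0.747). BC064078 had effects of 1.23 and 1.86, with a difference of 0.63 (interval from 0.03 to 1.24, adjusted p by limma = 0.86).

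**Figure D2:**
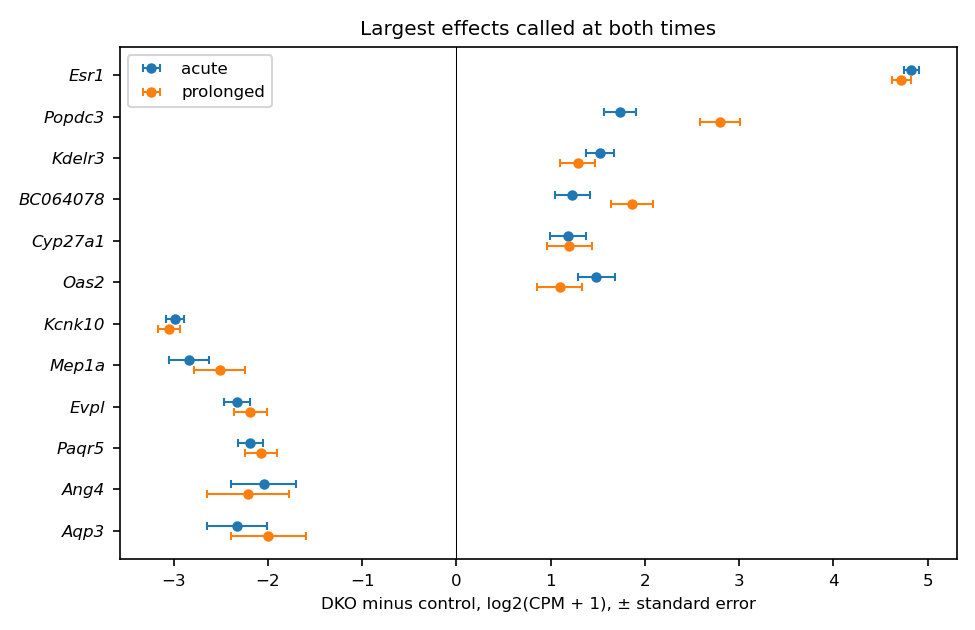
Effects (DKO minus control, log2(CPM + 1), horizontal axis) with standard errors of the 6 rises and 6 falls called at both times whose smaller effect of the 2 times was largest, acute in blue and prolonged in orange. The error bars of both times overlap or lie close together for most genes; Popdc3 lies at 1.74 and 2.80.

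How far the calls at both times held their size depended on scaling. Among the 201 genes called higher at both times the prolonged effect was larger in 150 and the median ratio of prolonged to acute effect was 1.252, but with TMM scaling it was larger in 97 and the ratio was 0.984. Among the 543 genes called lower at both times the prolonged effect was larger in 245 with a median ratio of 0.956, against 336 and 1.09 with TMM scaling. The 95% interval of the difference lay within 1 log2 unit of 0 for 701 of the 744 genes (94.22%) and within 0.5 for 389 (52.28%), beside 93.78% and 55.68% of all genes tested. Genotypes did not overlap at both times, in the same direction, for 482 of the 744 genes, beside 700 (5.31%) of all genes tested.

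The 3 genes with the smallest p for the difference were Slco5a1, Dcaf12l1 and Serpine2. They were below 2 CPM in every library but those of prolonged DKO mice. At the prolonged time all 3 reached the level for testing only with their DKO libraries. Slco5a1, of the organic anion transporter family, was at 0.602, 0.0753, 0.194, 0.0848 and 0.319 CPM in acute controls and between 0.140 and 1.36 CPM (median 0.575) in acute DKO libraries. It was at 0.863, 0.631 and 0.202 CPM in prolonged controls and at 7.01, 5.25, 4.26, 4.85 and 8.24 CPM in prolonged DKO libraries. Genotypes overlapped at the acute time and were far apart at the prolonged time. The effect was 0.44 ± 0.18 at the acute time (adjusted p by limma = 0.084) and 2.14 ± 0.22 at the prolonged time (adjusted p by limma = 3.97e-06), and the difference was 1.70 ± 0.29 (95% interval from 1.10 to 2.29, adjusted p by limma = 0.0726). On the scale of reads, where low levels are not compressed by the added 1 CPM, edgeR gave Slco5a1 an acute effect of 1.57, which it called, and a difference of 1.69 (adjusted p = 0.993).

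Dcaf12l1, a relative of a substrate receptor of cullin ubiquitin ligases, was at 0.473, 1.24, 1.36, 1.44 and 0.743 CPM in acute controls and between 0.6001 and 1.87 CPM (median 1.43) in acute DKO libraries. Prolonged controls held 0.431, 0.803 and 0.303 CPM and prolonged DKO libraries 4.78, 4.64, 3.51, 3.25 and 4.57 CPM. Genotypes overlapped at the acute time only. The effects of 0.19 and 1.77 gave a difference of 1.58 ± 0.27 (interval from 1.01 to 2.15, adjusted p by limma = 0.0726). DESeq2 put the Dcaf12l1 difference at 2.52 on the scale of reads (adjusted p = 0.00603).

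Serpine2, which encodes the serine protease inhibitor protease nexin-1, was at 0.215, 0.414, 0.713, 0.424 and 0.265 CPM in acute controls and between 0.140 and 1.16 CPM (median 0.640) in acute DKO libraries. It was at 0.129, 0.401 and 0.303 CPM in prolonged controls and at 2.71, 2.04, 2.89, 1.99 and 3.01 CPM in prolonged DKO libraries, with overlap at the acute time only. Its effects were 0.17 and 1.46 and the difference 1.29 ± 0.23 (adjusted p by limma = 0.0893). Mageh1, of the MAGE family, was at 1.59, 1.62, 2.14, 1.02 and 1.54 CPM in acute controls, between 0.699 and 2.08 CPM (median 1.24) in acute DKO libraries, at 0.345, 0.459 and 0.605 CPM in prolonged controls and at 2.63, 3.09, 2.41, 1.21 and 1.503 CPM in prolonged DKO libraries. The prolonged controls were below every acute control, and genotypes overlapped at the acute time only. The prolonged effect of Mageh1 was 1.07 ± 0.20, and the difference was 1.28 ± 0.25 (adjusted p by limma = 0.128). Nrep and Amotl1 were chosen after their values were seen. Nrep, a gene known from regenerating nerve, rose by 0.50 and 1.63, with acute genotypes overlapping, and the difference of 1.13 ± 0.22 did not pass (adjusted p by limma = 0.123). Amotl1, an angiomotin family gene of cell junctions, had effects of 0.62 (adjusted p by limma = 0.0537) and 2.10 (8.46e-05), with prolonged controls at 0.388, 0.229 and 0.202 CPM and acute controls between 0.425 and 3.17 CPM. Amotl1 and Mageh1 likewise reached the level for testing at the prolonged time only with their DKO libraries.

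Dcaf12l1, Nrep, Serpine2 and Slco5a1 were each called for the difference under 7 of 34 alternatives, Ghrl under 5, and Amotl1, Mageh1 and Popdc3 under 2. Each set of 7 includes the fit of each table alone and both of its variants chosen after seeing the data, which overlap. Serpine2 was called by neither edgeR nor DESeq2 (adjusted p = 0.973 and 0.192), and Slco5a1 was not called by DESeq2 (adjusted p = 0.999). Among settings that left out a single library, the difference was called for Serpine2 and Slco5a1 without acute DKO 2 (adjusted p by limma = 0.0308 for both) and for Nrep without acute control 5 (0.00804). The sign of the difference was kept for these 8 genes under every alternative that tested them. Scd1, the stearoyl-CoA desaturase of fatty acid synthesis, had the largest estimate of all genes. It was at 1.42, 6.10, 4.86, 5.39 and 0.637 CPM in acute controls, between 2.98 and 10.1 CPM (median 4.89) in acute DKO libraries, at 1.47, 1.49 and 0.706 CPM in prolonged controls and at 31.3, 12.2, 18.4, 9.51 and 19.4 CPM in prolonged DKO libraries. The spread within groups was wide, and the difference of 2.39 ± 0.58 (interval from 1.19 to 3.60) did not pass (adjusted p by limma = 0.499). Of 17 fatty acid synthesis genes tested, Scd1 among them, 7 were called lower at the acute time (17.9% of all genes were) and 2 at the prolonged time (4.5%). The acute count was 4 without acute control 1, and the prolonged count was 1 without any 1 of 11 libraries, all 8 prolonged ones among them. The list's median difference was 0.07, and -0.02 with TMM scaling.

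**Figure D3:**
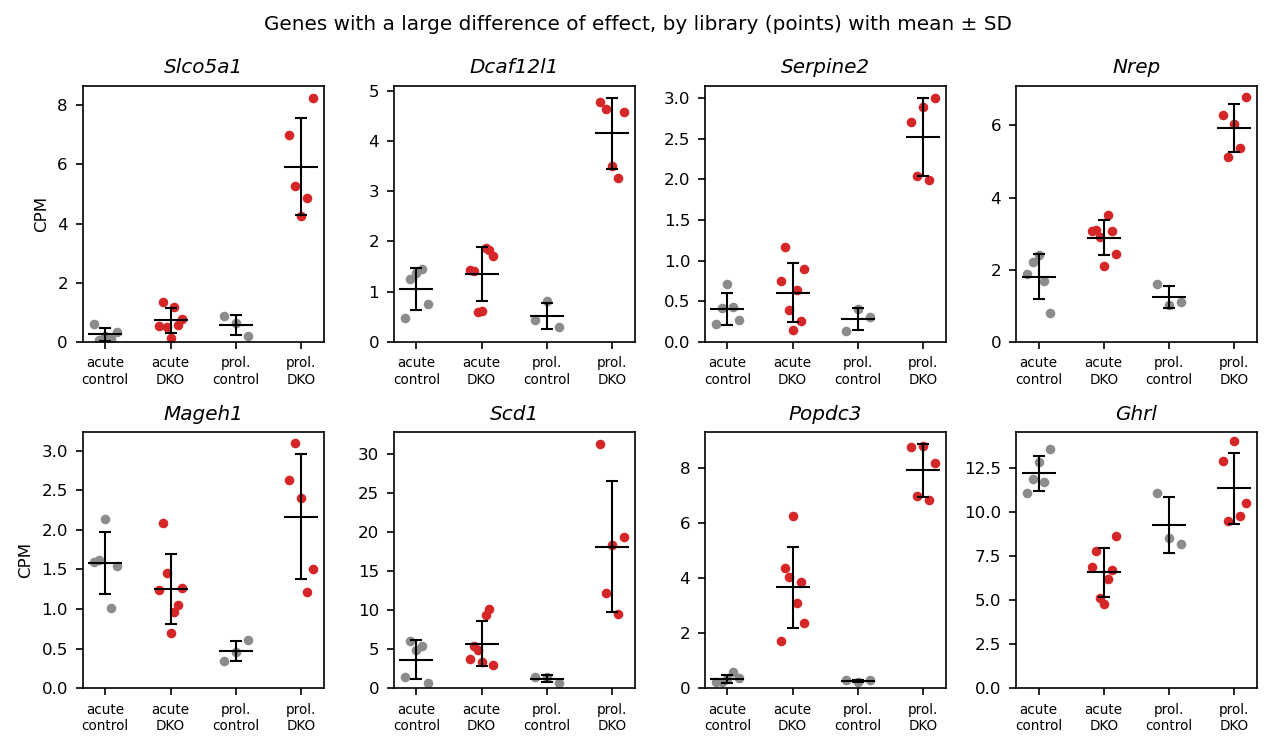
CPM in each library (points) of 8 genes, by group, with the mean (horizontal bar) and SD (error bar); control libraries are grey and DKO libraries red, and each vertical axis starts at 0. For Slco5a1, Dcaf12l1, Serpine2, Nrep, Mageh1, Scd1 and Popdc3 the prolonged DKO libraries are above the prolonged controls, and for Ghrl the acute DKO libraries alone are below their controls.

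Among genes called at the acute time alone, Ghrl, which encodes the hunger hormone ghrelin of enteroendocrine cells, had the smallest p for a difference above 0. It was at 11.1, 11.9, 12.8, 11.7 and 13.5 CPM in acute controls and between 4.76 and 8.65 CPM (median 6.69) in acute DKO libraries. It was at 11.04, 8.54 and 8.17 CPM in prolonged controls and at 12.9, 9.46, 14.0, 9.75 and 10.5 CPM in prolonged DKO libraries, so genotypes overlapped at the prolonged time only. Ghrl fell by 0.82 ± 0.13 at the acute time (adjusted p by limma = 0.000125), the prolonged effect was 0.26 ± 0.16, and the difference was 1.08 ± 0.20 (interval from 0.66 to 1.501, adjusted p by limma = 0.105). DESeq2 called the Ghrl difference (1.08, adjusted p = 0.00326). Gcg, the glucagon and incretin gene of other enteroendocrine cells, fell at both times, with effects of -0.89 and -1.10. Over 25 enteroendocrine genes tested the median difference was 0.10 with 16 above 0, 0.03 with TMM scaling, and -0.07 with 10 above 0 without acute DKO 3 and 4.

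Dscc1, part of the clamp loader that establishes sister chromatid cohesion, fell by 0.70 ± 0.11 at the acute time and was at -0.05 ± 0.13 at the prolonged time, a difference of 0.65 (adjusted p by limma = 0.747). Mrpl40, a mitochondrial ribosomal protein gene, and Rab17, a small GTPase gene of epithelial traffic, had acute effects of -0.30 and -0.17 and prolonged effects of 0.11 and 0.13. The acute call of Rab17 was lost without either of 2 libraries and under 8 other alternatives, TMM scaling among them (effect -0.08). Slco3a1, another organic anion transporter gene and chosen after its values were seen, was at 16.1, 16.8, 17.0, 15.4 and 14.2 CPM in acute controls, between 6.62 and 9.50 CPM (median 7.59) in acute DKO libraries, at 19.2, 18.3 and 18.7 CPM in prolonged controls and at 13.7, 12.9, 17.1, 13.3 and 15.1 CPM in prolonged DKO libraries. Genotypes were apart at both times. Slco3a1 had effects of -0.96 and -0.36, with a difference of 0.60 ± 0.13 that limma did not call (adjusted p = 0.318) and DESeq2 did (0.0219). Its prolonged call (adjusted p by limma = 0.0395) was lost without any 1 of 7 libraries.

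In the other direction, Slc37a2, a sugar phosphate exchanger gene, and Cxcl16, a chemokine gene, were called higher at the acute time with effects of 0.96 and 0.83, and had prolonged effects of -0.32 and 0.02. Fam8a1 and Samd9l, an interferon-inducible gene, had acute effects of 0.26 and 0.37 and prolonged effects of -0.07 and -0.06. Adjusted p by limma for these 4 differences was 0.86, genotypes overlapped at the acute time for each, and the acute call of Slc37a2 was lost without acute control 1 or acute control 3 (highest adjusted p by limma = 0.0768).

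Among genes called lower at the prolonged time alone, Agrn, which encodes the basement membrane proteoglycan agrin, was between 205 and 246 CPM in acute controls and between 206 and 239 CPM in acute DKO libraries. It was at 212, 222 and 239.5 CPM in prolonged controls and at 171, 196, 166, 178 and 166 CPM in prolonged DKO libraries, apart from the controls. The effects were -0.02 ± 0.05 and -0.36 ± 0.07 (adjusted p by limma = 0.832 and 0.00231), and the difference was -0.34 (interval from -0.52 to -0.16, adjusted p by limma = 0.747). Palld, which encodes the actin-binding protein palladin, had effects of -0.05 and -0.51, Slc22a23, of an organic ion transporter family, -0.07 and -0.38, and Tnk2, a tyrosine kinase gene, 0.18 and -0.46. The prolonged call of Tnk2 (adjusted p by limma = 0.0453) was lost in 14 of the settings that left out 1 library. Fcgrt, the neonatal Fc receptor gene, and Aspg, an asparaginase gene, both chosen after their values were seen, fell at both times and had the larger effects at the prolonged time, at -1.91 and -2.69 for Fcgrt and -1.96 and -2.46 for Aspg. Their differences, -0.78 and -0.50, did not pass (adjusted p by limma = 0.86 for each), and DESeq2 called that of Aspg (0.0168) but not that of Fcgrt (0.516).

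The 43 gene lists were described by counts and medians beside those of all genes tested. None held a gene called for the difference by limma. Over all genes, 70.22% of differences were above 0, so a list's differences are read against that share and against the median of 0.08. In these bulk libraries, fewer cells of a type and less RNA per cell cannot be told apart.

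Cell cycle genes had median effects below 0 at both times, with smaller estimates at the prolonged time and no member called for the difference. Of 32 DNA replication genes tested (the MCM helicase, GINS, polymerase and nucleotide supply genes), 31 were called lower at the acute time, where 17.9% of all genes were, and 19 at the prolonged time, where 4.5% were. The median effect was -0.64 at the acute time and -0.45 at the prolonged time, and the difference was above 0 for 32 of 32, with a median of 0.20. Of 30 mitosis genes tested, 29 were called lower at the acute time and 5 at the prolonged time, with medians of -0.59 and -0.34, and the difference was above 0 for 30 of 30, with a median of 0.24. With TMM scaling the median differences were 0.12 and 0.15, above 0 for 29 of 32 and 29 of 30. Without acute DKO 3 and 4 they were 0.21 and 0.25. Members of a list are not independent replicates. For the mean log2(CPM + 1) of the members in each library, the difference was 0.19 for replication and 0.24 for mitosis. The SD of that mean within groups was 0.12 and 0.17, and these differences were not tested.

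Mcm3, a subunit of the replicative helicase, was at 73.7, 60.9, 64.4, 60.5 and 70.4 CPM in acute controls and between 28.9 and 52.0 CPM (median 38.1) in acute DKO libraries, and at 66.7, 57.4 and 73.6 CPM in prolonged controls against 48.2, 42.8, 41.8, 41.1 and 44.3 CPM in prolonged DKO libraries. Genotypes were apart at both times, and Mcm3 fell by 0.79 ± 0.11 and by 0.58 ± 0.13, a difference of 0.21 with an interval from -0.14 to 0.56. Its prolonged call was lost without prolonged control 3 (adjusted p by limma = 0.0821). Pcna, the sliding clamp, had effects of -0.60 and -0.46, called at both times, and the mitotic genes Ccnb1 (cyclin B) and Mki67 had effects of -0.59 and -0.57 at the acute time (both called) and -0.27 and -0.41 at the prolonged time (neither called). The counts at the prolonged time moved with the fit and with single libraries. Fitting each table alone gave 24 replication and 23 mitosis genes lower at the prolonged time. Leaving out prolonged control 3 gave 3 and 0, and leaving out prolonged control 1 gave 8 and 0. The mitosis count was between 0 and 9 over all settings with 1 library left out, 0 without prolonged DKO 3 as well.

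Interferon-stimulated genes and interferon-induced GTPases, which restrict viruses and intracellular microbes, had median effects above 0 at both times, smaller at the prolonged time for the former and larger for the latter. Most of the interferon-stimulated genes passed the test at the acute time, and few of the GTPases passed at either time. Many of these genes are switched on through a pair of sequence elements: the interferon-stimulated response element, used after type I interferon, and the gamma-activated site, used after interferon gamma. The 250 bases before the RefSeq start of an interferon-stimulated gene and of 2 GTPase genes are shown because these promoters hold the letters of those elements. Capitals mark matches to GAAANNGAAA (the core of the response element) or TTCNNNGAA (the core of the activated site), searched on both strands. Positions are those of GRCm38.p6, chr19:34640639-34640888 (+) for Ifit1, chr3:142620413-142620662 (+) for Gbp2 and chr11:58199306-58199555 (+) for Igtp.
Ifit1: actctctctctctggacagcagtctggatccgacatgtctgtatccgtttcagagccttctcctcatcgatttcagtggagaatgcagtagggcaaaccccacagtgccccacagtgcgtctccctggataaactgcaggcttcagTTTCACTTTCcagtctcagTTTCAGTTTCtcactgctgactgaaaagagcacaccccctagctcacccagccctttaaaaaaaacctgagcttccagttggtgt
Gbp2: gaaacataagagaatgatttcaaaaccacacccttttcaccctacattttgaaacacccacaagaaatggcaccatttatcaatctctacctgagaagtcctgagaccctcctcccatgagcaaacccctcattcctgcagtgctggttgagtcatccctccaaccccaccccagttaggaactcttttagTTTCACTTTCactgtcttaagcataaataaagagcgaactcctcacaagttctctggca
Igtp: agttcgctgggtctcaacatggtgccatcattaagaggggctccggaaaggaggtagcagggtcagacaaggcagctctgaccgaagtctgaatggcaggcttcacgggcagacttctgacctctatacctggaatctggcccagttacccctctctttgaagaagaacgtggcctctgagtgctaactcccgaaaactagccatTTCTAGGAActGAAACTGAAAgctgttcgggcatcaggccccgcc

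Ifit1 held 2 matches to the response element core, 104 and 85 bases before its start, and Gbp2 held 1, 59 bases before it. In Igtp a match to the activated site core began 45 bases before the start and 1 to the response element core 34 bases before it. Shares were counted over whole RefSeq windows, which run past the start, beyond the bases shown above. Of 35 interferon-stimulated genes tested, 23 had a window in RefSeq and 12 of these held GAAANNGAAA, as did 8 of 9 GTPase genes with a window and 379 of 10233 tested genes with a window (3.7%, and 3.06% of all 12997 windows). TTCNNNGAA was found in 5 of 23, 5 of 9 and 8.42% (6.99% of all windows). The lists were chosen as interferon genes, and a match is a description of letters, not of binding.

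Of the 35 interferon-stimulated genes, 24 were called higher at the acute time, where 4.59% of all genes were, and 14 at the prolonged time, where 2.59% were, and all 14 were among the 24. Their median effect was 0.63 and 0.42, and the difference was below 0 for 26 of 35, with a median of -0.09 (-0.17 with TMM scaling, -0.05 without acute DKO 3 and 4). The prolonged count was 8 without prolonged control 1 and 9 without prolonged control 3. Ifit1, which binds viral RNA, was at 39.9, 28.4, 27.4, 30.1 and 40.8 CPM in acute controls and between 64.0 and 85.1 CPM (median 76.3) in acute DKO libraries, and at 30.6, 36.4 and 27.5 CPM in prolonged controls against 52.5, 58.5, 48.2, 58.8 and 53.6 CPM in prolonged DKO libraries. Genotypes were apart at both times. Ifit1 rose by 1.15 ± 0.11 and 0.77 ± 0.13 (adjusted p by limma = 4.72e-07 and 0.00104), and the difference was -0.38 (interval from -0.73 to -0.02, adjusted p by limma = 0.86).

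All 14 GTPases tested had a larger estimate at the prolonged time: the median effect was 0.59 at the acute time and 1.14 at the prolonged time, and the median difference 0.43 (0.36 with TMM scaling, above 0 for 13 of 14, and 0.64 without acute DKO 3 and 4, above 0 for 14). At the acute time 2 were called (Gbp3 and Gbp7) and at the prolonged time 4 (Gbp2, Gbp3, Gbp7 and Tgtp2), beside 4.59% and 2.59% of all genes, named here after their values were seen. Gbp2, a guanylate-binding protein gene, was at 9.55, 5.46, 8.88, 6.78 and 5.57 CPM in acute controls and between 5.67 and 27.4 CPM (median 10.7) in acute DKO libraries. It was at 3.97, 1.95 and 1.31 CPM in prolonged controls and at 23.7, 14.8, 7.43, 8.98 and 11.3 CPM in prolonged DKO libraries. The prolonged genotypes were apart. Prolonged controls were below every acute control, while the DKO ranges of both times overlapped. The effects were 0.64 ± 0.30 and 2.03 ± 0.37 (adjusted p by limma = 0.129 and 0.0018), and the difference of 1.39 ± 0.48 had an adjusted p by limma of 0.86.

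Igtp, an immunity-related GTPase gene, was at 171, 25.3, 57.1, 39.6 and 97.6 CPM in acute controls and between 84.2 and 318 CPM (median 99.4) in acute DKO libraries, and at 83.6, 53.2 and 37.4 CPM in prolonged controls against 318, 173, 71.7, 119.9 and 147 CPM in prolonged DKO libraries. Genotypes overlapped at both times. Igtp had effects of 0.91 and 1.41, called at neither time, with a difference of 0.50 (interval from -0.90 to 1.89), or 0.82 without acute DKO 3 and 4. The list score (mean log2(CPM + 1) of the 14 members) varied between libraries of 1 group: it was 4.51 in acute control 1 against 2.99 to 3.81 in the other acute controls, 5.07 in acute DKO 4 against 3.82 to 4.47, and between 3.83 and 5.12 in prolonged DKO libraries against 2.91 to 3.75 in prolonged controls. The mean score was 3.68 in acute controls and 3.32 in prolonged controls, and 4.23 in acute DKO and 4.42 in prolonged DKO libraries. Between times it was thus lower in controls as well as higher in DKO libraries. The acute count of 2 was 6 without acute control 1 and 0 without acute control 2 or acute control 3. The count of 4 at the prolonged time was 1 without prolonged control 2 or prolonged control 3, 2 without prolonged DKO 1 and 7 without acute DKO 4. Without acute DKO 3 and 4 the acute count was 0 and the prolonged count 7. The 24 immune cell genes tested had a median effect of 0.09 and 0.26 with none called, and their part in the GTPase result was not tested. Gbp, Irg and Oas genes have close paralogs, whose reads may be divided in an unknown way.

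**Figure D4:**
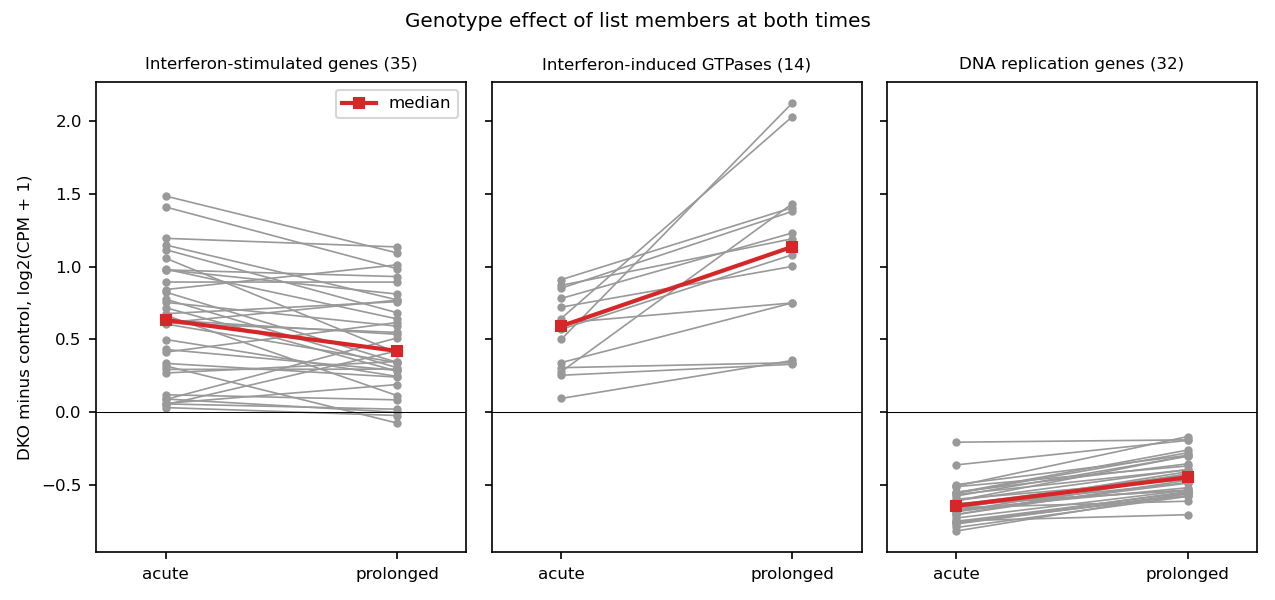
Effects (DKO minus control, log2(CPM + 1), vertical axis) of each tested member at both times, joined by grey lines, with the list's median in red. The median goes from 0.63 to 0.42 over the 35 interferon-stimulated genes, from 0.59 to 1.14 over the 14 GTPases and from -0.64 to -0.45 over the 32 DNA replication genes.

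Paneth cell and stem cell genes had smaller median effects at the prolonged time with all libraries in the fit. Without acute DKO 3 and 4 the order turned for the Paneth list, with medians of -0.998 and -1.08, and held for the stem cell list, with -0.303 and -0.199. Of 19 Paneth cell products tested (defensins, lysozyme and other antimicrobial proteins of the crypt base), 16 were called lower at the acute time and 4 at the prolonged time. Over all genes 17.9% and 4.5% were called lower. The list's medians were -1.41 and -1.09, with a median difference of 0.29, above 0 for 18 of 19. Without acute DKO 3 and 4 the counts were 13 and 12, the median difference was -0.08 and 7 of 19 were above 0. The prolonged count was 11 without acute DKO 4 alone, 2 without prolonged DKO 2 and 1 without any 1 of the prolonged controls. The score of these genes was 4.38 in acute DKO 3 and 3.71 in acute DKO 4, against 5.10 to 5.65 in the other acute DKO libraries and 5.81 to 6.79 in acute controls. In prolonged libraries it was 6.13 to 6.37 in controls and 4.34 to 5.88 in DKO libraries. Mmp7, the protease that activates defensins, had effects of -1.27 and -0.98 (adjusted p by limma = 0.000125 and 0.0176), and its prolonged call was lost without any 1 of the 3 prolonged controls (highest adjusted p by limma = 0.0861). Its difference of 0.29 was 0.08 without acute DKO 3 and 4. Defensin genes are near-identical copies.

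Of 23 crypt base stem cell markers tested, 14 were called lower at the acute time (17.9% of all genes were). At the prolonged time 2 were called lower and 1 higher (4.5% and 2.59% of all genes were). The 2 lower calls were 5 without acute DKO 3 and 4, 4 without acute DKO 3, 5 without acute DKO 4 and 1 without any 1 of the prolonged controls. The median difference of 0.21 was 0.01 without acute DKO 3 and 4, with 13 of 23 above 0 against 21. Lgr5, the receptor that marks these stem cells, was between 20.8 and 28.2 CPM in acute controls, between 5.97 and 21.9 CPM (median 16.6) in acute DKO libraries, at 21.6, 21.3 and 22.6 CPM in prolonged controls and at 19.3, 20.8, 19.5, 17.5 and 26.3 CPM in prolonged DKO libraries. Genotypes overlapped at both times. Lgr5 fell by 0.79 ± 0.22 at the acute time (adjusted p by limma = 0.013), and the difference to the prolonged effect of -0.09 was 0.70 (interval from -0.03 to 1.42), or 0.37 without acute DKO 3 and 4. Olfm4, another stem cell marker, was called at the acute time alone (-1.04 and -0.79) with genotypes apart at both times. Wnt target genes had a median difference of 0.21 over 17 members and Notch and secretory fate genes one of 0.21 over 16, which were 0.06 and 0.09 without acute DKO 3 and 4.

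Genes of the absorptive villus cell had differences below 0 in most members. Of 19 brush border digestive enzymes, 8 were called higher and 4 lower at the acute time against 1 and 1 at the prolonged time, with medians of 0.13 and 0.06 and a median difference of -0.17 (-0.18 without acute DKO 3 and 4, -0.25 with TMM scaling). The prolonged counts of 1 were between 0 and 2 higher and up to 3 lower with 1 library left out (3 without acute DKO 4). The mean list score of controls and DKO libraries was 9.30 and 9.24 at the acute time and 9.60 and 9.45 at the prolonged time, so the mean and the median differed in sign. Of 20 nutrient transporters, 5 were called higher and 4 lower at the acute time, where 4.59% and 17.9% of all genes were, and 0 higher and 2 lower at the prolonged time (2.59% and 4.5% of all genes). The 5 higher calls were 2 without acute control 3 and 3 without acute DKO 1, acute control 1 or acute control 4, and the 2 lower prolonged calls were 1 without prolonged DKO 4 or any 1 of the prolonged controls. The difference was below 0 for 15 of 20, and the median effects were 0.09 and -0.00. The mean of the list differed in sign from the median at the acute time: the mean list score of controls and DKO libraries was 7.41 and 7.28 at the acute time, then 7.67 and 7.43. Slc5a1, the sodium-glucose cotransporter, rose by 0.63 at the acute time (adjusted p by limma = 0.00997) and had a prolonged effect of 0.24 (0.595). Fat absorption genes, 7 of 19 called higher at the acute time (4 without any 1 of 5 libraries, acute DKO 1 and 3 and acute control 1, 3 and 4) and 1 at the prolonged time, had medians of 0.22 and 0.17 and 14 of 19 differences below 0. Sis, for sucrase-isomaltase, had effects of 0.43 and 0.19 and Apoa4, for an apolipoprotein of chylomicrons, 0.25 and 0.21, called at neither time.

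Antimicrobial and oxidant defence genes (Reg lectins, NADPH and dual oxidases and related genes) had the lowest median difference of the lists, -0.64 over 17 members with 14 below 0. The medians were -0.04 at the acute time and -0.48 at the prolonged time. Without acute DKO 3 and 4 the median difference was -0.04 and 8 of 17 were above 0. The list score was 7.00 and 7.16 in acute DKO 3 and 4 against 5.89 to 6.49 in the other acute DKO libraries. Reg3g, an antibacterial lectin, was between 1014 and 11683 CPM (median 2332) in acute DKO libraries, the highest being acute DKO 4, and between 1027 and 5522 CPM in acute controls. Its effects were 0.47 and -0.25, called at neither time, and the difference of -0.72 was -0.18 without acute DKO 3 and 4. Reg1, Noxo1 and Fcgrt were the 3 of 17 members called lower at the prolonged time, where 4.5% of all genes were, and were named after their values were seen. Only Reg1 was not called lower at the acute time as well. The count of 3 was 5 without acute DKO 3 and 4 and 1 without prolonged control 1 or prolonged control 3. Reg1 was between 160.5 and 363 CPM in acute controls, between 156 and 397 CPM in acute DKO libraries, at 252, 272 and 315 CPM in prolonged controls and at 114, 144, 198, 123 and 156 CPM in prolonged DKO libraries, with effects of -0.04 and -0.94. Its prolonged call (adjusted p by limma = 0.0275) was lost without any 1 of 6 libraries.

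Of the remaining lists, 1 was the integrated stress response, in which ATF4 drives amino acid supply genes. Of its 21 members, 9 were called lower at the acute time (17.9% of all genes were) and 2 at the prolonged time (4.5%). With 1 library left out these counts were between 6 and 10 and between 1 and 3 (1 without prolonged control 3). The medians were -0.30 and -0.06, and the median difference was 0.24 (0.24 without acute DKO 3 and 4, 0.17 with TMM scaling). The mean list score of controls was 4.707 at the acute time and 4.433 at the prolonged time. In DKO libraries it was 4.255 and 4.223, so controls differed more between times than DKO libraries did. The 35 cytosolic ribosomal protein genes had medians of -0.13 and 0.05, with none called at either time and 34 differences above 0, and a median difference of 0.18 that was 0.10 both with TMM scaling and without acute DKO 3 and 4. Among chromatin regulators, the 11 genes of the Kdm6 and MLL3/4 complex had a median difference of 0.09, the 11 PRC2 genes 0.08 and the 20 PRC1 genes 0.15. Without acute DKO 3 and 4 these were 0.04, 0.05 and 0.08, and with TMM scaling 0.01, -0.00 and 0.07. Ezh2, the methyltransferase of PRC2, fell by 0.36 at the acute time (adjusted p by limma = 0.00106), with a prolonged effect of -0.21 (0.186). Of 35 Hox genes listed only 6 reached the level for testing, and of 42 developmental regulators only 9. At the prolonged time 0 of the 6 Hox genes and 3 of the 9 regulators were called, all 3 lower (4.5% of all genes were), and the count of 3 was 1 by edgeR and 1 without prolonged DKO 3, prolonged DKO 5 or any 1 of the prolonged controls. Zg16, a goblet cell lectin gene, rose at both times by 0.72 and 0.58 (adjusted p by limma = 1.44e-06 and 0.000427), with genotypes apart. Its list had median effects below 0 at both times. Of 20 goblet cell genes tested, 1 was called higher and 8 lower at the acute time (4.59% and 17.9% of all genes were). The 8 lower calls were 4 without acute DKO 3 and 4, 6 with TMM scaling and between 4 and 9 with 1 library left out. At the prolonged time 1 was called higher and 2 lower (2.59% and 4.5%). These 2 were between 0 and 3 with 1 library left out. The list's median effects were -0.27 and -0.10, and the acute one was -0.19 without acute DKO 3 and 4. The plot of list medians shows all lists with at least 5 tested members.

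**Figure D5:**
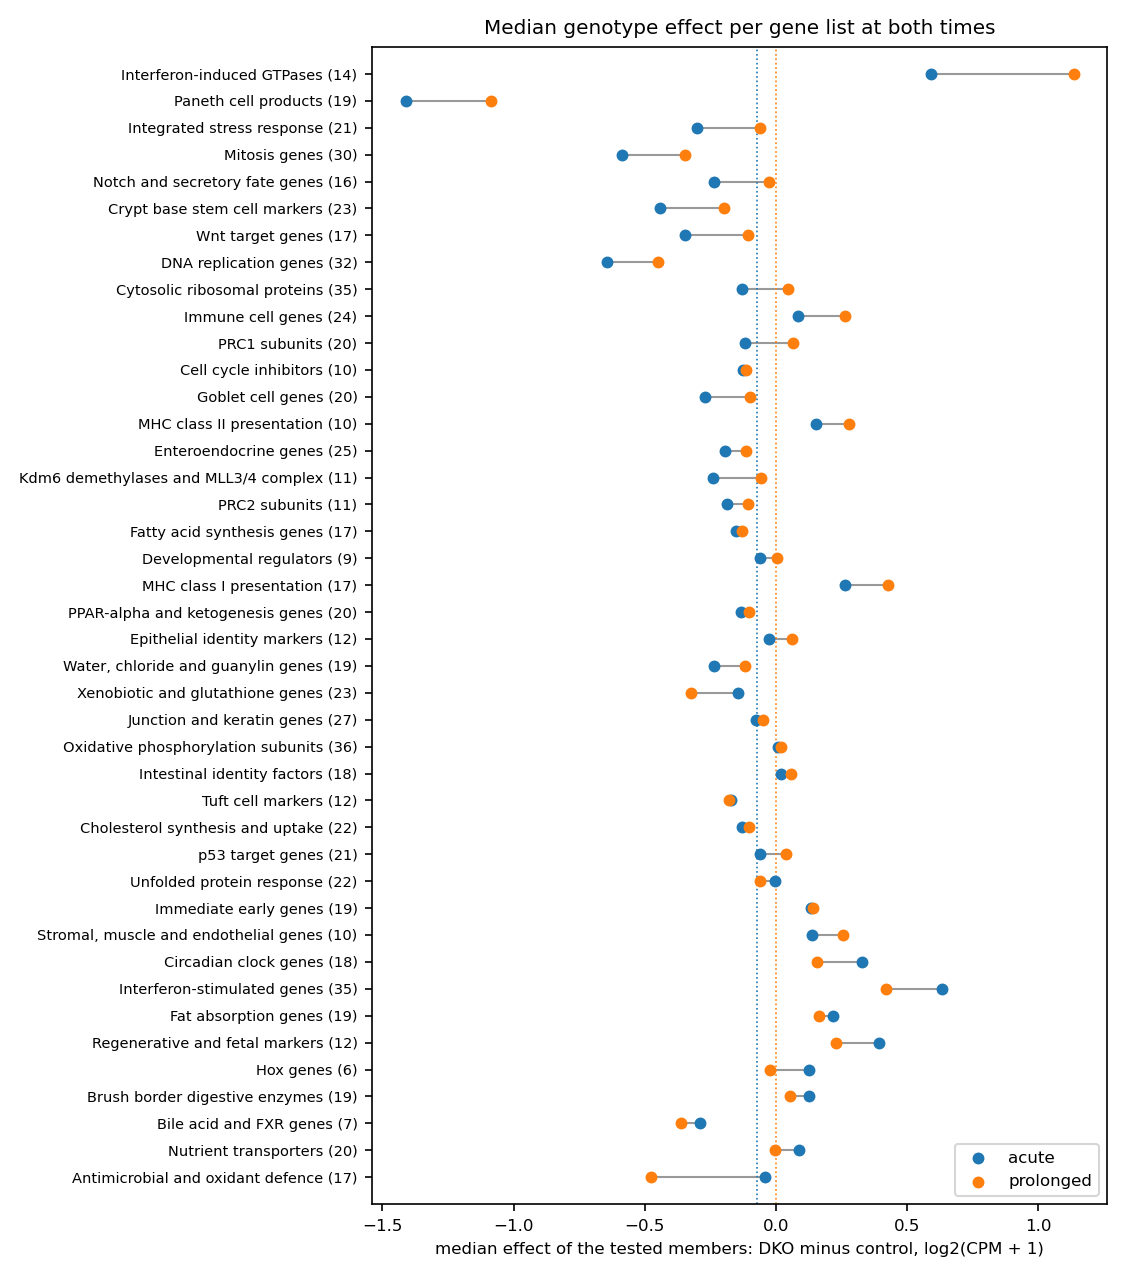
Median effect (DKO minus control, log2(CPM + 1), horizontal axis) of each gene list with at least 5 tested members, acute in blue and prolonged in orange, joined by a line; the number of tested members is in brackets and dotted lines mark the medians of all genes (-0.07 and 0.00). Lists are ordered by the median difference of their members, from 0.43 for the interferon-induced GTPases at the top to -0.64 for antimicrobial and oxidant defence genes at the bottom.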

How the data were processed

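Poly(A) RNA-seq of 20 libraries was deposited as 1 table per time. The deposited values are CPM, reads per gene scaled by the authors to the total over the genes of a table, as the column sums show. Tools in the submitters' processing notes, listed without roles, are featureCounts 1.6.2, STAR, FastQC 0.11.5, DESeq2, bedtools 2.27.1 and SAMtools 1.9, with mm9 as build. The authors' deposited log2 fold changes and adjusted p-values were not used. No source used here says if counting was by strand. Date-like names, 24 of them acute, were dropped, and 7 columns of each deposited file were not used.

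Log2(CPM + 1) values were fitted with limma-trend (version 3.58.1 in R 4.3.3), with 4 group means and no covariate, and the contrasts were DKO minus control at each time and their difference. This scale understates changes of low genes. In every library 100% of CPM values were whole multiples of 1 read within 0.01 reads, so edgeR 4.0.16 and DESeq2 1.42.0 were run on the reads as alternatives. The script was tested on simulated data. No library was a copy of another: within groups, the ratio of observed to sampling variance was 6.49 to 149 over 44 pairs.

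Named genes were Kdm6a, Kdm6b and Esr1, the 6 largest rises and falls called at both times with no overlap, the 4 with the smallest p for the difference in each direction among genes called at 1 time, and fixed examples of each list; others are said to be chosen after their values were seen. Results of some fixed examples are not reported here. The members and all 43 gene lists were chosen with earlier results of these data known. Alternatives were other pseudocounts, filters, scalings, models, sample weights, a replicate block and left-out libraries. Promoter windows are RefSeq's on GRCm38.p6, which is not the authors' build, and were matched by symbol.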

Additional observations from a re-analysis of the deposited data

Results flagged for a closer look

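Of 348 groups of 5 or 7 libraries of the named genes reported here, 26 (7.47%) held a library far from the others by Dixon's criterion. About 1 in 20 would for independent, normally distributed values. CPM values need not be normal and genes of 1 library are not independent, so no excess is read from this share. Acute DKO 4 was the library in 7 of the 26. It was high for the interferon genes Iigp1 (16.4 CPM), Igtp (318 CPM) and Gbp7 (42.4 CPM), for the lectins Reg3b (24784 CPM) and Reg3g (11683 CPM) and for Ly6a (13.8 CPM), and low for the T cell gene Cd3e (6.15 CPM against 25.6 to 34.1 CPM). Acute DKO 3 was high for Clu (28.6 CPM), Nos2 (167 CPM) and Amotl1 (5.14 CPM). Without both libraries the difference of differences was 1.07 or more for Slco5a1, Dcaf12l1, Serpine2, Nrep, Mageh1, Amotl1 and Scd1.

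Prolonged DKO 1 was high for Iigp1 (29.0 CPM against 1.65 to 9.56 CPM), Tgtp2 (15 CPM) and Per2 (38.8 CPM). Acute control 1 was high for Iigp1 (8.43 CPM) and Ly6a (5.33 CPM) and low for Chga (71.4 CPM). Prolonged DKO 2 was high for Atf4 (222 CPM) and Asns (69.7 CPM) and low for Zg16 (1106 CPM). Prolonged DKO 3 was high for Tnk2 (49.1 CPM) and Vim (18.4 CPM) and low for Kcnk10 (1.10 CPM) and Vil1 (2944 CPM). Prolonged DKO 4 was high for Mdm2 (71.0 CPM), acute control 2 low for Zg16 (757 CPM) and acute control 5 low for Muc2 (352 CPM).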

How the results depend on the processing

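The difference of differences was called for 0 genes in the joint fit, for 4 with a pseudocount of 5, 5 with no filter, 6 with each table fitted alone, 8 by DESeq2, 10 with sample weights, 8 with each table alone without acute DKO 3 and 4 and 5 with TMM-scaled CPM and each table alone. The acute count of 2968 was 1734 with each table alone without acute DKO 3 and 4 and 1811 with TMM scaling and each table alone. The prolonged count of 935 was 1940 with each table alone, 2669 with sample weights, 1936 with each table alone without acute DKO 3 and 4 and 2011 with TMM scaling and each table alone. The median SD within groups was 0.111 and 0.125 in prolonged DKO and control libraries and 0.188 and 0.149 in acute ones, so a fit of the prolonged table alone uses a smaller spread. The 744 genes called at both times were 1574 with sample weights. Both alternatives that combine fitting each table alone with another choice were chosen after seeing the data.

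With 1 library left out, the difference was called for 0 to 2 genes, the acute effect for 2119 to 3234, the prolonged effect for 411 to 1243 and both for 359 to 959, and the correlation of the effects was 0.723 to 0.805. Prolonged calls were 411 without prolonged control 3 and 582 without prolonged control 1, and calls at both times 359 and 443.

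The replicate block gave 1939 acute and 176 prolonged calls, 153 at both times and 0 for the difference. Deviations of same-numbered control and DKO libraries from their group means correlated between -0.241 and 0.0972. This gives no sign of pairing by replicate number but cannot show that libraries were unpaired. Pairing by mouse number was not examined.

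No result changed sign while called. Genes below about 1 CPM rest on few reads, and the least deep library held 9914738.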

Other observations

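X-linked genes were chosen for a look after values had been seen (chromosomes from RefSeq, GRCm38.p6). Of 394 X-linked genes tested, 21 (5.33%) had a prolonged effect above 0.5 on the log2 scale, against 331 of 12408 autosomal genes (2.67%). At the acute time the shares were 1.52% and 1.69%. At the prolonged time 17 X-linked genes (4.31%) were called higher and 14 lower, beside 2.59% and 4.5% of all genes tested. With 1 library left out these counts were between 6 and 22 and between 8 and 17, and with the replicate block 5 and 4. The median difference was 0.07 for X-linked and 0.08 for autosomal genes. Why the share above 0.5 differed was not tested.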
